A study of Mus with 96 samples.

Results

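The livers described here are those of the Hep-Bmal1WT mice on normal chow, taken at 6 times of day. The 24 libraries were chosen by their titles, which name chow and Hep-Bmal1WT, out of 96 libraries in all, and 4 of them belong to each of ZT2, ZT6, ZT10, ZT14, ZT18 and ZT22 (zeitgeber time, hours after lights on). The study set these mice beside mice without Bmal1 in hepatocytes and beside a diet that drives steatohepatitis, and the comparisons below stay within the chow-fed controls and ask which transcripts change with the time of day, when they peak and how strongly.

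Hep-Bmal1WT mice were Alb+/+/Bmal1flx/flx littermates of the knockout: both Bmal1 alleles carry loxP sites, no Cre recombinase is present, and a mouse without floxed alleles was not part of the group. All were C57BL/6J, 8 to 10 weeks old, kept in 12 h of light and 12 h of darkness with food always at hand, and on the chow diet for 2 weeks. Each time held 2 males (replicates 1 and 2) and 2 females (replicates 3 and 4), 12 of each sex in all, and every library carried its own mouse number. The 4 values of a time are given in the order of replicates 1 to 4, that is, males and then females.

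In mammals, the molecular clock is a loop of transcription factors: BMAL1 and CLOCK (or NPAS2) activate the period and cryptochrome genes, whose proteins return to the nucleus and block their own activators. A second loop ties in REV-ERB and ROR receptors, which repress and activate Bmal1, and the output factors DBP, TEF, HLF and NFIL3 carry the time to other genes. In the liver, feeding, body temperature and glucocorticoids also impose daily rhythms, and much of glucose, lipid, bile acid and drug metabolism follows the hour.

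The libraries held 1861740 to 9095237 counts on genes, with a median of 5769262.5, and all 24 matched their labelled sex. Hepatocyte markers made up 78404 to 171523 CPM (a gene's counts scaled to a common library total), led by Alb at a mean of 92131, as in hepatocytes. On the 20 core clock genes, ZT6 replicate 2 lay 1.70 log2 units (root mean square) from the other 3 libraries of its time and ZT18 replicate 4 lay 1.33, against 0.481 to 0.962 in the other 22. Placed on a scale from 0 (the other libraries of their label) to 1 (the knockout libraries of the same time on chow), these 2 libraries labelled Hep-Bmal1WT lay at 0.91 over 9 genes and at 0.84 over 3 genes, and 2 of the other 22, ZT22 replicates 3 and 4, lay past the midpoint over 4 genes. Another library, the male ZT6 replicate 1, lay at 0.45 on the same kind of scale between the sexes. It had Mup20 at 3508 CPM against 14789 to 29277 in the other 11 males and Cyp2b9 at 47.9 against at most 5.96. On this scale ZT6 replicate 2 lay at 0.286 and ZT18 replicate 4 at 0.272, and the remaining 21 libraries from -0.119 to 0.154. Results are therefore also given without the first 2 of these libraries, or without all 3. Mouse numbers formed a separate block at each time, so handling and time of day cannot be told apart. The titles and the headers of the count columns name no plate. The plate positions used here are therefore an assignment that these labels do not state. As assigned, plate columns held ZT2 with ZT6, ZT10 with ZT14 and ZT18 with ZT22. Whether these were the true positions cannot be told from the labels.

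Over the day, 2969 of 15548 genes tested followed a 24 h rhythm (19.1%), and for 717 of them (4.61% of genes tested) the fitted peak was at least 2-fold above the trough. The test was edgeR's quasi-likelihood F test of a 24 h cosine and sine, with Benjamini-Hochberg adjusted p under 0.05, and 5101 genes had an unadjusted p under 0.05. Amplitude is given as the distance from the mean level to the peak of a fitted cosine, in log2 units of variance-stabilized values: its quartiles among the called genes were 0.30, 0.38 and 0.49, the highest value was 2.49, and the median over all genes tested was 0.193. A median called gene thus stood 1.71-fold higher at its peak than at its trough, with a standard error of the peak time of 0.925 h. In whole liver, fewer cells of a type and less RNA per cell cannot be told apart. Without the first 2 libraries named above 2653 genes were called, 2418 of them among the 2969, and with the plate column as a term in the fit 748, of which 580 were among them. The assigned plate columns are pairs of neighbouring times, so this term takes up part of the 24 h cosine and sine. The lower count therefore cannot measure a plate effect.

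Rhythm calls followed the level at which a gene was counted. Of the 9368 genes with a mean under 10 CPM, 995 were called (10.6%), against 1566 of 5050 genes between 10 and 100 CPM (31.0%) and 408 of 1130 genes at 100 CPM or more (36.1%). The called genes of the lowest class had a median amplitude of 0.44, and those of the higher classes 0.35 and 0.36. Testing time of day as 6 separate levels, with no shape assumed, called 3289 genes (21.2%).

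Peak times fell into 2 clusters, one late in the light phase and one in the second part of the dark phase. The busiest hours were 8 to 9 h after lights on, with 347 called genes, and 20 to 21 h, with 307, whereas 31 genes peaked from 2 to 3 h and 31 from 14 to 15 h. In bins of 4 h centred on the sampled times, 175 genes peaked around ZT2 (1.13% of genes tested), 547 around ZT6 (3.52%), 854 around ZT10 (5.49%), 158 around ZT14 (1.02%), 558 around ZT18 (3.59%) and 677 around ZT22 (4.35%). The share of the ZT10 bin among the called genes was 28.8%, and it was 13.8% of the 958 genes called when the 4 ZT10 libraries were left out. The ZT18 bin then held 30.9%, where it had held 18.8%. In a fit without ZT10, the fitted peak of 2714 of the 2969 genes (91.4%) moved by under 2 h.

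**Figure D1:**
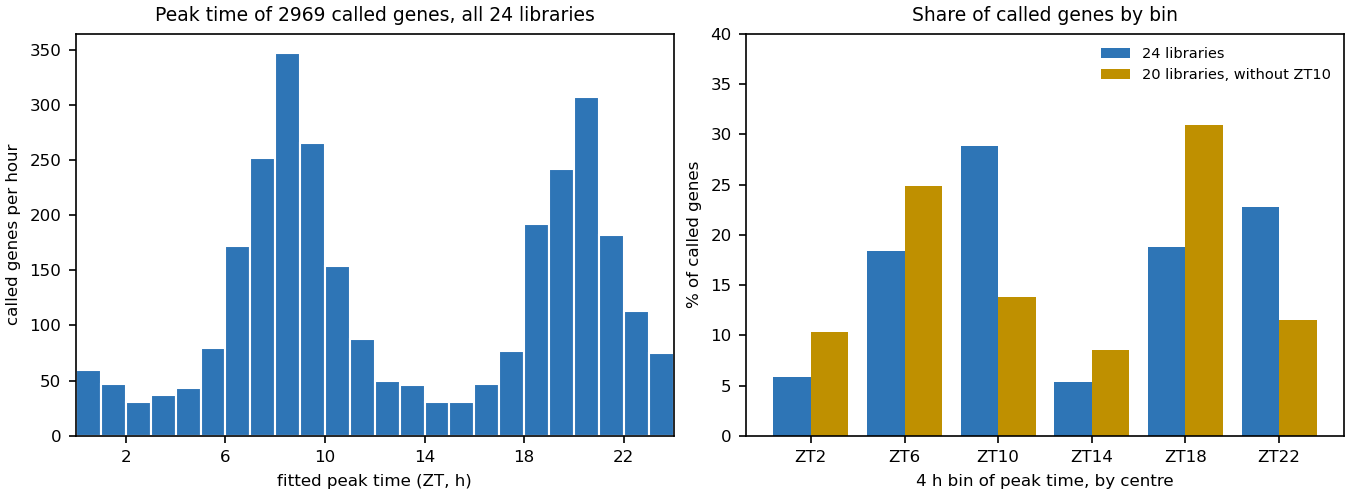
Left, number of called genes (vertical axis) by the hour of their fitted peak (horizontal axis, ZT in h) over all 24 libraries. The bars reach 347 genes at 8 to 9 h and 307 at 20 to 21 h. Right, percent of called genes in each 4 h bin with all 24 libraries and with the 20 libraries other than ZT10, where the tallest bar moves from ZT10 (28.8%) to ZT18 (30.9%).

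The core clock followed the day in 17 of its 20 genes (85%), against 19.1% of all genes tested. Its median amplitude was 1.17, against 0.193 over all genes tested. Arntl, which encodes BMAL1, lies at chr7:113178471-113314126 in mm10. Its CPM were 16, 12.5, 17.8 and 21.4 at ZT2, 3.82, 7.64, 2.66 and 4.81 at ZT6, 1.14, 0.649, 0.176 and 0.56 at ZT10, 0.969, 0.726, 2.51 and 4.83 at ZT14, 6.94, 7.89, 11.2 and 3.22 at ZT18 and 18.1, 10.3, 15.4 and 13.3 at ZT22. Every ZT2 and ZT22 library stood above every ZT10 and ZT14 library, and the lowest 3 values were those of ZT10. The fitted peak was at 23.4 ± 0.353 h (SE), the amplitude 1.5 ± 0.14 and the peak-to-trough fold 8.02 (adjusted p = 1.62e-06, edgeR).

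Clock, the partner of BMAL1, moved far less. It was at 24.2 ± 2.96 CPM (SD, n = 4) at ZT2 and 9.68 ± 1.78 CPM at ZT10, with an amplitude of 0.56 ± 0.07 and a peak at 0.798 ± 0.471 h (adjusted p = 4.1e-05). Npas2, which can take the place of CLOCK, had CPM of 6.18, 2.89, 19.3 and 7.34 at ZT2, 2.27, 14.1, 0.399 and 0.16 at ZT6, 0.57, 0, 0.529 and 0 at ZT10, 0, 0.363, 0.209 and 0.645 at ZT14, 0.188, 0, 1.28 and 16.1 at ZT18 and 1.63, 0.195, 10.2 and 8.82 at ZT22. The ZT6 and ZT18 values spread from below 1 to above 14 CPM, and the high ones belong to the 2 libraries that stand apart on the clock genes. Its rhythm (adjusted p = 0.0348, peak at 0.624 ± 1.01 h) was lost in 10 of 24 fits that each left out 1 library, namely ZT2 replicate 3, ZT22 replicate 3, or any one of the ZT10 and ZT14 libraries, with adjusted p up to 0.0724, and it had an adjusted p of 0.000157 without the 2 libraries.

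Among the repressors, the period genes peaked from the end of the light phase to the early dark and Cry1 followed in the late dark. Per3 had CPM of 0.193, 2.17, 1.52 and 1.01 at ZT2, 3.2, 4.53, 7.18 and 11.9 at ZT6, 25.5, 17.7, 44.6 and 32.1 at ZT10, 13, 8.89, 11.1 and 13.4 at ZT14, 5.44, 6, 2.38 and 3.08 at ZT18 and 1.45, 4.48, 1.23 and 2.84 at ZT22. All 4 ZT10 values were above the values of all other times, and ZT2 was lowest. Its fitted peak was at 11.4 ± 0.45 h, with an amplitude of 1.48 ± 0.17 (adjusted p = 9.53e-07). Per1, which also answers to glucocorticoids, peaked at 11.7 ± 0.715 h with 24.1 ± 10.6 CPM at ZT10 and 2.54 ± 2.11 at ZT2 (adjusted p = 0.000118). Per2 came after both, at 13.9 ± 0.494 h, with 28 ± 7.14 CPM at ZT14 and 3.58 ± 0.76 at ZT2 (adjusted p = 5.64e-05).

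Cry1 had CPM of 15.3, 12.1, 14.7 and 11.1 at ZT2, 3.82, 44.7, 3.86 and 5.29 at ZT6, 5.13, 5.03, 5.82 and 12.1 at ZT10, 10.7, 7.62, 22.6 and 15.2 at ZT14, 24.6, 26, 27.1 and 44.7 at ZT18 and 24.8, 30, 33.2 and 26.3 at ZT22. ZT6 replicate 2 stood at 44.7 CPM, where the other ZT6 libraries had 3.82 to 5.29, and apart from it every library of ZT18 and ZT22 was above every library of ZT2, ZT6, ZT10 and ZT14. The adjusted p was 0.0167 with all libraries and 4.5e-07 without the 2 libraries, and 0.211 without ZT10. The fitted peak lay at 20.1 ± 0.723 h. Cry2, the other cryptochrome, was not called (adjusted p = 0.0557): its mean was 8.66 ± 4.26 CPM at ZT2 and 20.3 ± 1.6 at ZT18, and it passed in the fits without 1 of ZT6 replicates 2 to 4 or ZT14 replicates 1 and 2.

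The strongest rhythms of the second loop were those of the REV-ERB genes. Nr1d1, which encodes REV-ERBα (chr11:98767932-98775377), had CPM of 1.93, 7.76, 14.7 and 8.63 at ZT2, 47.9, 12.3, 71.7 and 69.8 at ZT6, 43, 42.7, 37.6 and 29.1 at ZT10, 17.3, 9.07, 5.86 and 8.22 at ZT14, 1.31, 1.74, 1.65 and 0.419 at ZT18 and 1.45, 2.34, 1.41 and 1.5 at ZT22. Levels were high at ZT6 and ZT10 and at most 2.34 in the 8 libraries of ZT18 and ZT22, and ZT6 replicate 2 was the lowest of the ZT6 libraries at 12.3. The gene peaked at 8.09 ± 0.327 h with an amplitude of 2.11 ± 0.18 and a 18.7-fold range (adjusted p = 3.03e-09).

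Nr1d2, which encodes REV-ERBβ, peaked later, at 10.5 ± 0.471 h, with 49.8 ± 5.39 CPM at ZT10 against 6.7 ± 1.35 at ZT2 (amplitude 1.33 ± 0.16, adjusted p = 4.26e-06). Rora was not called, with 67.2 ± 5.85 CPM at ZT10 and 44.3 ± 12 at ZT18 (adjusted p = 0.0724), and passed without ZT6 replicate 1 or without ZT22 replicate 2.

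Of the output factors, Dbp had the largest swing in the core clock. Its product, a PAR bZIP activator, binds D-boxes in many metabolic genes, and the gene lies at chr7:45705100-45710203. The CPM were 6.57, 5.24, 4.06 and 4.03 at ZT2, 49.4, 9.97, 70.1 and 69.8 at ZT6, 218, 163, 266 and 246 at ZT10, 99.2, 103, 20.5 and 26.4 at ZT14, 13.9, 9.95, 7.15 and 8.53 at ZT18 and 6.52, 8.37, 5.97 and 4.93 at ZT22. The lowest ZT10 library was above the highest library of any other time, and at ZT14 the males (99.2 and 103) stood above the females (20.5 and 26.4). The fitted amplitude was 2.37 ± 0.25, a 26.6-fold range with the peak at 10.5 ± 0.405 h (adjusted p = 1.22e-08).

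Tef, a related activator, ran about 2 h behind Dbp. It had CPM of 12.4, 20.8, 15.2 and 15.2 at ZT2, 45, 47.2, 47.2 and 55.1 at ZT6, 127, 107, 140 and 129 at ZT10, 96.9, 106, 84.3 and 92.7 at ZT14, 51.8, 68.8, 55 and 42.4 at ZT18 and 37.8, 53.5, 32.1 and 36 at ZT22. Here the 4 ZT10 values were above all others, the ZT14 values followed at 84.3 to 106, and the 4 ZT2 values were below all others. The amplitude was 1.18 ± 0.12 with the peak at 12.6 ± 0.394 h (adjusted p = 9.53e-07). Hlf, the third PAR bZIP gene, had an amplitude of 0.39 ± 0.09 with a peak at 14.2 ± 0.881 h (adjusted p = 0.00963).

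Nfil3 encodes a repressor that competes for the same D-boxes, and its rhythm was the reverse. Its CPM were 24.1, 17, 23.4 and 27.9 at ZT2, 6.61, 9.46, 7.58 and 9.61 at ZT6, 1.52, 3.41, 3 and 2.43 at ZT10, 6.2, 8.89, 20.1 and 14 at ZT14, 18.8, 19.6, 20.2 and 16.2 at ZT18 and 23.7, 24.9, 34.1 and 20.3 at ZT22. The ZT10 libraries had at most 3.41 CPM and lay below every other library of the group. The peak was at 21.9 ± 0.432 h (amplitude 1.19 ± 0.14, adjusted p = 1.86e-05).

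Further genes of the loop followed the same evening window. Usp2, a deubiquitinase, had CPM of 8.69, 17.2, 1.52 and 2.59 at ZT2, 7.54, 21.5, 8.25 and 8.17 at ZT6, 128, 106, 126 and 118 at ZT10, 91.1, 83.6, 52.7 and 51.6 at ZT14, 41.8, 38.7, 34.9 and 24.6 at ZT18 and 22.1, 27.8, 17.7 and 16.4 at ZT22, with every ZT10 library above every ZT14 library and the ZT2 and ZT6 libraries at most at 21.5 (amplitude 1.74 ± 0.24, peak at 13.5 ± 0.529 h, adjusted p = 3.39e-05). Ciart, a repressor of the activator pair, reached 21.1 ± 8.16 CPM at ZT10 from 0.342 ± 0.475 at ZT2 (amplitude 1.64 ± 0.21, peak at 12 ± 0.492 h, adjusted p = 9.67e-07). Bhlhe40, which encodes DEC1, peaked at 12.4 ± 0.784 h (amplitude 0.52 ± 0.11, adjusted p = 0.00182), and Bhlhe41 at a mean of 0.787 CPM was not called (adjusted p = 0.142). Without ZT10, 15 of the 20 genes were called, and without the 2 libraries that stand apart 18. Over all 15548 genes tested, these settings called 958 and 2653.

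**Figure D2:**
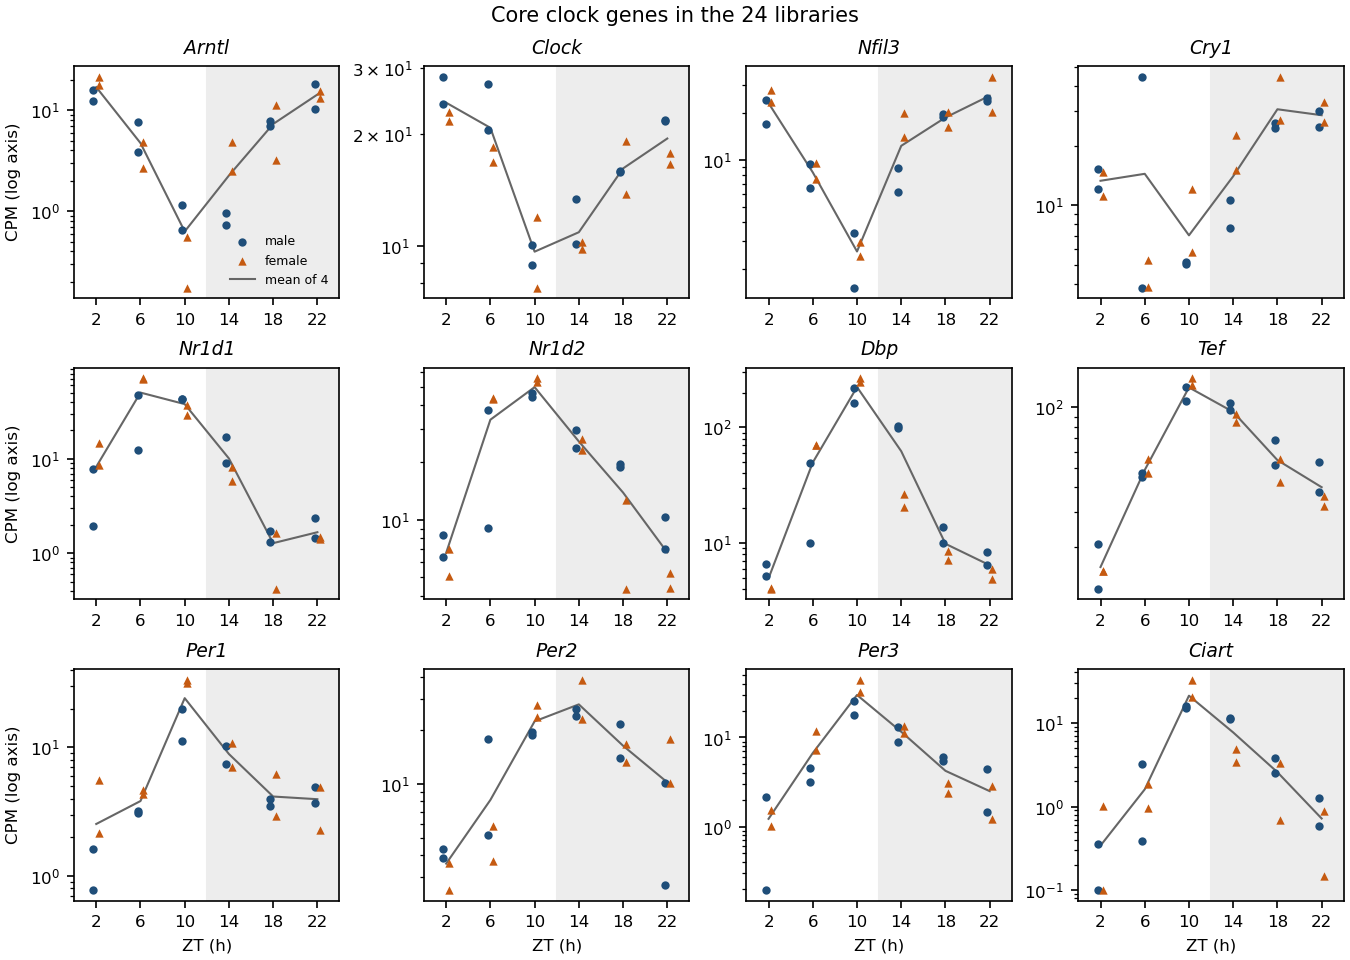
CPM (vertical log axis, with values of 0 drawn at 0.1) against ZT in h (horizontal axis, dark phase shaded) for 12 core clock genes, with circles for males, triangles for females and a line through the means of 4. Arntl, Clock and Nfil3 are lowest at ZT10, while Dbp, Tef, Nr1d2, Per1, Per3 and Ciart are highest there. The ZT6 circle that lies high for Cry1 and low for Dbp is replicate 2.

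Around ZT2, the largest amplitude was that of Tubb2a, which encodes a beta tubulin. Its CPM were 249, 219, 358 and 242 at ZT2, 191, 266, 123 and 115 at ZT6, 34, 57.1, 30.3 and 25.2 at ZT10, 34.5, 36.5, 61.7 and 58.7 at ZT14, 88.3, 106, 133 and 216 at ZT18 and 99, 143, 190.3 and 187 at ZT22. The 8 libraries of ZT10 and ZT14 had at most 61.7 CPM and the 4 of ZT2 from 219 to 358. The peak was at 0.512 ± 0.513 h (amplitude 1.31 ± 0.18, adjusted p = 3.93e-05). Insig2, which holds the sterol sensor in the endoplasmic reticulum, stood at 234 ± 20.6 CPM at ZT2 and 49.7 ± 5.28 at ZT10 (amplitude 1.08 ± 0.14, adjusted p = 8.15e-05). Chka, the first enzyme of phosphatidylcholine synthesis from choline, went from 98 ± 26.6 to 22.8 ± 3.9 CPM over the same times (amplitude 0.96 ± 0.14, adjusted p = 8.12e-05). Asap2 was at 7.94 ± 2.26 CPM at ZT2 and 1.18 ± 0.475 at ZT10 (amplitude 0.95 ± 0.14, adjusted p = 0.000702). The immediate early gene Egr1 was called too (amplitude 1.20 ± 0.44, adjusted p = 0.0119), at CPM of 0, 2.17, 24.4 and 4.46 at ZT2, 9.4, 9.33, 24.1 and 75.9 at ZT6, 2.09, 1.78, 3.17 and 0.373 at ZT10, 0.388, 0.726, 3.35 and 0.645 at ZT14, 0.563, 0.474, 1.83 and 0.419 at ZT18 and 3.44, 2.53, 118 and 4.34 at ZT22. Those values were spread widely within ZT2, ZT6 and ZT22, and 1 library of ZT22 held 118 CPM where the other 3 had 2.53 to 4.34.

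Genes that peaked around ZT6 were led by Abcd2, a peroxisomal transporter of very long chain fatty acids. Its CPM were 18.4, 17.5, 58.9 and 47.2 at ZT2, 78.2, 9.33, 79 and 91 at ZT6, 17.3, 28.7, 67.5 and 77.9 at ZT10, 11.6, 11.6, 42.7 and 38.2 at ZT14, 4.5, 8.21, 19.4 and 15.7 at ZT18 and 2.9, 4.09, 24.1 and 19.3 at ZT22. Both females were above both males at each of the 6 times, and ZT6 replicate 2 at 9.33 was far below the other 3. The peak was at 7.43 ± 0.98 h with an amplitude of 1.13 ± 0.29 (adjusted p = 0.00348). The nuclear long noncoding RNA Malat1 followed with 58.7 ± 9.06 CPM at ZT10 and 7.24 ± 2 at ZT18 (amplitude 1.08 ± 0.24, adjusted p = 0.00396), and its single highest library was ZT2 replicate 3, the shallowest of the 24, at 168 CPM. Unc93a2 went from 11.1 ± 3.18 CPM at ZT10 to 1.27 ± 0.798 at ZT18 (amplitude 0.95 ± 0.14, adjusted p = 6.96e-05), and the pseudogene Mug-ps1 from 47.1 ± 13.9 to 10.8 ± 3.46 (adjusted p = 4.06e-05), with reads that its murinoglobulin relatives may share. Mt1, a metallothionein, was called at an adjusted p of 0.0284, and lost that call without ZT6 replicate 4 or without ZT18 replicate 1, 2 or 4 (adjusted p up to 0.0879).

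The ZT10 bin was the largest. Rgs16, a regulator of G protein signalling, led it outside the clock, at CPM of 0.193, 0.542, 6.09 and 0.719 at ZT2, 0.723, 0, 29.5 and 13 at ZT6, 11, 12.7, 8.64 and 15.5 at ZT10, 3.1, 1.09, 11.1 and 14.2 at ZT14, 0, 0.158, 0.55 and 0.14 at ZT18 and 0.362, 0, 0.702 and 0.748 at ZT22. The ZT6 males had 0.723 and 0 CPM and the ZT6 females 29.5 and 13, and the 8 libraries of ZT18 and ZT22 had at most 0.748. The amplitude was 1.49 ± 0.32, the peak 9.59 ± 0.827 h and the adjusted p 0.000526. Lpin1, a phosphatidate phosphatase and coactivator of fat oxidation, had CPM of 9.27, 54.9, 59.9 and 49.9 at ZT2, 52, 99, 133 and 86.3 at ZT6, 255, 197, 192 and 229 at ZT10, 243, 136, 266 and 217 at ZT14, 148, 44.8, 80.9 and 75.2 at ZT18 and 88.5, 49.1, 14.2 and 44.1 at ZT22. Levels at ZT10 and ZT14 lay between 136 and 266, and of the other 16 libraries 1, a ZT18 male at 148, reached that range. Its peak was at 12 ± 0.564 h (amplitude 1.38 ± 0.20, adjusted p = 4.1e-05).

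The other leaders of the ZT10 bin had their highest means at ZT10. Coq10b, which binds coenzyme Q, stood at 86 ± 8.97 CPM at ZT10 and between 12 ± 5.1 (ZT2) and 39.8 ± 8.45 (ZT14) at the other times (amplitude 1.22 ± 0.15, adjusted p = 9.36e-07). Upp2, a uridine phosphorylase, was at 376 ± 74.1 CPM at ZT10 and 59.8 ± 20.7 at ZT2 (amplitude 1.12 ± 0.16, adjusted p = 9.72e-06). Pcsk4, a proprotein convertase, went from 7.31 ± 2.14 CPM at ZT2 to 39.7 ± 10.1 at ZT10 and 26.8 ± 6.55 at ZT14, where the libraries of the last 2 times overlapped (amplitude 1.09 ± 0.16, adjusted p = 1.48e-05).

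Around ZT14, the largest amplitude outside the clock list was that of Thrsp, a lipogenic gene driven by thyroid hormone and carbohydrate. Its CPM were 72.2, 103, 230 and 181 at ZT2, 151, 188, 125 and 69.5 at ZT6, 715, 1189.7, 620 and 735 at ZT10, 1132, 924, 750 and 694 at ZT14, 1482, 938, 464 and 304 at ZT18 and 311, 675, 414 and 414 at ZT22. The 8 libraries of ZT2 and ZT6 had at most 230.0 CPM and the 8 of ZT10 and ZT14 at least 620.0. It peaked at 15.2 ± 0.555 h (amplitude 1.5 ± 0.22, 8.02-fold, adjusted p = 7.22e-05). Noct, which encodes the phosphatase nocturnin, had CPM of 17, 13.7, 3.05 and 10.6 at ZT2, 12, 3.63, 1.86 and 4.97 at ZT6, 35.4, 47.2, 40.9 and 78.2 at ZT10, 45.4, 59.1, 58.2 and 49.6 at ZT14, 24.9, 19.7, 29.7 and 15.5 at ZT18 and 8.33, 8.96, 10.7 and 17.8 at ZT22. Every library of ZT10 and ZT14 exceeded every library of the other times. Its amplitude was 1.37 ± 0.22 and its peak at 13.9 ± 0.626 h (adjusted p = 0.000163).

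The other leaders of this bin were Cyp2a5, a coumarin hydroxylase, with 2121 ± 507 CPM at ZT10 and 372 ± 239 at ZT6 (adjusted p = 0.00581), the growth factor gene Nrg4 with 15.5 ± 4.08 CPM at ZT14 and 2.37 ± 0.337 at ZT2 (adjusted p = 4.06e-05), and the secreted protein gene Tsku. Reads of Cyp2a5 may be shared with Cyp2a4. The call of Tsku (adjusted p = 0.0288) was lost without ZT2 replicate 4, ZT14 replicate 1 or ZT14 replicate 2 (adjusted p up to 0.0668).

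Around ZT18, Mup15 and Mup17 had the 2 largest amplitudes of all called genes. Both are major urinary protein genes, which encode pheromone carriers secreted by the male liver. Mup15 had CPM of 121, 100.4, 4.57 and 28.6 at ZT2, 0.723, 0.518, 5.19 and 0.32 at ZT6, 72, 92, 4.41 and 21.7 at ZT10, 518, 536, 75.8 and 40.1 at ZT14, 1079, 608, 25.7 and 2.94 at ZT18 and 1352, 918, 55.8 and 20.6 at ZT22. In males the values ran from 0.518 at ZT6 to 1352 at ZT22, in females they stayed at or below 75.8. Over both sexes the amplitude was 2.49 ± 0.71 with a peak at 18.2 ± 1.09 h (adjusted p = 0.00598), and in males alone the adjusted p was 0.000492, in females alone 0.215. Separate fits are no test of a difference between the sexes, and the test of sex against both rhythm terms did not call Mup15. Both ZT6 males are among the 3 libraries that stand apart, and without these the adjusted p over both sexes was 0.00613. The fit of males alone includes both ZT6 males. Mup17 (2.45 ± 0.73, adjusted p = 0.0103) and Mup7 (2.19 ± 0.94, adjusted p = 0.014) had the same peak bin. The Mup genes are near-identical copies, so reads may have been split or shared among them.

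The next leaders of the ZT18 bin were the muscle genes Acta1 (skeletal actin, amplitude 1.79 ± 0.73, adjusted p = 0.00206) and Ckm (muscle creatine kinase, amplitude 1.79 ± 0.62, adjusted p = 0.00086). All 5 skeletal muscle markers were called. Their summed CPM were 155, 376 and 1268 in ZT18 replicates 1, 3 and 4 and 793 in ZT22 replicate 4, and at most 39.1 in the other 20 libraries, 18 of which had at most 1.73. Without these 4 libraries the adjusted p was 0.0621 for Acta1 and 0.114 for Ckm, and 1468 genes were called in all, 1370 of them among the 2969. Whether muscle RNA took part in other ZT18 calls was not tested.

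Outside the clock list, genes that peaked around ZT22 were led by Saa1, an acute phase protein gene, at CPM of 43.1, 183, 46.2 and 52.9 at ZT2, 35.5, 10.6, 37.6 and 64.7 at ZT6, 32.7, 37.5, 28.6 and 17.2 at ZT10, 31.6, 69.7, 30.6 and 42.2 at ZT14, 244, 45, 51.7 and 24.3 at ZT18 and 3169, 514, 50 and 32.4 at ZT22. The highest values were those of males: ZT22 replicates 1 and 2 held 3169 and 514 CPM, and the 2 ZT22 females 50 and 32.4. The adjusted p was 0.000409 over both sexes, 0.000372 in males and 0.316 in females, and Saa1 shares most of its sequence with Saa2, which was called at an adjusted p of 0.000474. The test of sex against both rhythm terms did not call Saa1. Clpx, a subunit of the mitochondrial ClpXP protease, had CPM of 204, 152, 204 and 263 at ZT2, 119, 263, 152 and 86.8 at ZT6, 45.6, 43.3, 37.2 and 35.1 at ZT10, 36.6, 36.1, 74.3 and 75.3 at ZT14, 82.5, 92.7, 132 and 252 at ZT18 and 200.1, 168, 293 and 225 at ZT22. The ZT10 libraries had at most 45.6 CPM and the ZT2 and ZT22 libraries 152 to 293, and ZT6 replicate 2 and ZT18 replicate 4 were the highest of their times. Its peak was at 23.9 ± 0.478 h (amplitude 1.24 ± 0.16, adjusted p = 3.08e-05).

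G6pc, the catalytic subunit of glucose-6-phosphatase, stood at 54.9 ± 33.6 CPM at ZT10 and 239.8 ± 52.4 at ZT22 (amplitude 1.13 ± 0.18, peak at 20.2 ± 0.599 h, adjusted p = 0.000206). The galectin-related gene Lgalsl stood at 5.64 ± 1.03 and 36.5 ± 7.38 CPM at these times (amplitude 1.11 ± 0.15, adjusted p = 0.000179). Acnat2, an N-acyltransferase, was at 13 ± 6.81 and 59.3 ± 45.6 CPM at ZT10 and ZT18 (adjusted p = 0.0227), and at an adjusted p of 0.0657 without the 2 libraries that stand apart.

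Set directly against each other, times 12 h apart differed least between ZT14 and ZT2, more between ZT18 and ZT6 and most between ZT22 and ZT10. In all 3 contrasts a call is an adjusted p under 0.05 in edgeR's quasi-likelihood test with time as a factor. At ZT14, 85 genes were higher than at ZT2 (0.547%) and 113 lower (0.727%), 198 in all, and 101 to 119 without ZT2 replicate 3 or 4 or ZT14 replicate 3 or 4. The core clock list gave 11 of 20 genes higher and 2 lower there. Tef was higher by 2.57 log2 units (adjusted p = 2.26e-09). Nampt, the rate-limiting enzyme of NAD salvage, had CPM of 39.4, 53.1, 38.6 and 43.7 at ZT2, 47.6, 53.5, 49.3 and 57.7 at ZT6, 88.2, 82.1, 106 and 112 at ZT10, 106, 130.1, 187 and 191 at ZT14, 105, 104, 99.8 and 69.8 at ZT18 and 68.1, 72.8, 66.4 and 77.4 at ZT22. The lowest ZT14 value was 106 and the highest ZT2 value 53.1, and the log2 difference was 1.81 (adjusted p = 1.44e-06).

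Slc37a4, which carries glucose-6-phosphate into the endoplasmic reticulum, was higher by 1.17 at ZT14 (153 ± 12.1 against 68.3 ± 5.74 CPM, adjusted p = 0.0001). Lower at ZT14 than at ZT2 were Tubb2a (log2 difference -2.48, adjusted p = 0.0001), Denn2b (-1.94, adjusted p = 4.21e-05) and Psen2, a gamma-secretase subunit (-1.25, adjusted p = 0.00038).

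At ZT18, 355 genes were higher than at ZT6 (2.28%) and 410 lower (2.64%). Tsc22d3, which encodes the glucocorticoid-induced leucine zipper GILZ, had CPM of 70.5, 46.9, 60.9 and 78.4 at ZT2, 42.5, 63.3, 41 and 48.9 at ZT6, 62.5, 74.3, 60.3 and 70 at ZT10, 134, 125, 144 and 188 at ZT14, 135, 109, 179 and 164 at ZT18 and 97, 82, 107 and 113 at ZT22. No ZT6 library overlapped the ZT14 or ZT18 libraries, and the ZT18 level was higher than that of ZT6 by 1.59 (adjusted p = 1.95e-05). Marveld1 was higher by 1.47 and Agpat2, an enzyme of phosphatidic acid synthesis, by 1.13 (adjusted p = 2.85e-05 and 8.38e-05).

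The lower genes were led by Casp6, an executioner caspase, at CPM of 10.4, 11.2, 18.3 and 17 at ZT2, 28, 27.6, 30.5 and 25.8 at ZT6, 16, 14.4, 18.5 and 20.2 at ZT10, 9.5, 12.7, 9.63 and 11.1 at ZT14, 6, 5.84, 6.79 and 6.01 at ZT18 and 9.41, 6.81, 7.9 and 7.62 at ZT22. Its 4 ZT6 libraries were above all other 20, and the ZT18 libraries had 5.84 to 6.79. The log2 difference was -2.18 (adjusted p = 6.12e-08), and it was -5.31 for Nr1d1 (adjusted p = 3.36e-06) and -2.29 for the predicted gene Gm33543 (adjusted p = 9.9e-06). This contrast held 464 calls without the 2 libraries that stand apart and 315 without all 3, which lie in ZT6 and ZT18. Leaving out ZT6 replicate 3 or 4 or ZT18 replicate 1 or 3 gave 438 to 489 calls.

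At ZT22, 1541 genes were higher than at ZT10 (9.91%) and 1510 lower (9.71%). Spcs1, a subunit of the signal peptidase, had CPM of 118, 111, 54.8 and 127 at ZT2, 145, 104, 144 and 150.4 at ZT6, 18.1, 30.7, 17.8 and 14.9 at ZT10, 93.8, 153, 159 and 179.5 at ZT14, 178, 156, 165 and 158 at ZT18 and 176, 148, 145 and 136 at ZT22. Its ZT10 libraries stood far below all others, which overlapped among themselves, and it had no 24 h call (adjusted p = 0.127). The ZT22 level was higher by 2.89 (adjusted p = 7.84e-08). Gnmt, which uses up methyl groups by methylating glycine, was higher by 1.96 with 351 ± 18 CPM at ZT10 and 1367 ± 266 at ZT22 (adjusted p = 7.84e-08). Its means at the remaining times ran from 1073 ± 211 at ZT14 to 1398 ± 178 at ZT18.

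Agpat2 was higher by 1.77 at ZT22 (adjusted p = 7.84e-08), with 156 ± 15.7 CPM at ZT10, 294 ± 49.4 at ZT14 and 536 ± 28.8 at ZT18. Dbp was lower at ZT22 (log2 difference -5.12, adjusted p = 4.75e-07), as were Coq10b (-2.78, adjusted p = 9.39e-08) and Prkd3, a protein kinase D (-1.40, adjusted p = 2.79e-07).

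From one time to the next, nearly all calls fell on the step into ZT10 and the step out of it. From ZT2 to ZT6, 12 genes were called (0.0772%), among them Tef, Dbp, Nr1d1, Nr1d2, Casp6 and Klhl24 higher at ZT6 and Nfil3, Hsph1 and Prodh lower. From ZT6 to ZT10 1838 (11.8%), of which 777 were higher and 1061 lower at ZT10, and from ZT10 to ZT14 1849 (11.9%), of which 1032 were higher and 817 lower at ZT14. The step from ZT14 to ZT18 held 64 calls (0.412%). From ZT18 to ZT22 there was 1 call (0.00643%), Hspa8, a chaperone of the cytosol, with 1110.0 ± 73.8 CPM at ZT18 and 491 ± 55.4 at ZT22 (log2 difference -1.18, adjusted p = 0.0416). From ZT22 to ZT2 there were 3 (0.0193%): Tef (-1.32, adjusted p = 0.00117), Prrc2c (1.61, adjusted p = 0.0146) and Prkd3 (0.75, adjusted p = 0.0465). At an unadjusted p under 0.05 these last 2 steps held 824 and 1532 genes. The genes of these 3 steps were named after their values were seen. Single libraries moved these counts: the ZT2 to ZT6 step held 3 calls without ZT2 replicate 1, 6 without ZT6 replicate 4 and 40 without ZT6 replicate 2, and the ZT10 to ZT14 step 1224 without ZT10 replicate 3 and 1167 without ZT14 replicate 4. The ZT14 to ZT18 step held 0 without ZT14 replicate 1 or ZT18 replicate 4, 10 to 40 without ZT10 replicate 3 or 4, ZT14 replicate 2, 3 or 4 or ZT18 replicate 1 or 3, and 106 without ZT22 replicate 4. From ZT18 to ZT22 edgeR made no call in 15 of 24 fits that left out 1 library, and without ZT22 replicate 4 it made 13. Steps that share the ZT10 libraries are not independent of each other.

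The ZT10 libraries also stood apart as a group. In 737 genes all 4 of them lay above or below all 20 other libraries (4.74% of genes tested), 342 above and 395 below. The same count was 8 for ZT2 (0.0515%), 20 for ZT6 (0.129%), 17 for ZT14 (0.109%), 47 for ZT18 (0.302%) and 11 for ZT22 (0.0707%). Over the 6804 genes with a mean log2 CPM above 3, the root mean square difference between the means of neighbouring times was 0.54 into ZT10 and 0.50 out of it, and 0.24 to 0.34 in the other 4 steps. Reads outside annotated genes were 9.31 to 11.1% at ZT10 against 10.7% in ZT2 replicate 3 and 5.65 to 8.86% in the remaining libraries. Mitochondrial genes took 8.51 to 9.48% of counts at ZT10, within the 6.74 to 10.8% of ZT2, and 7.10 to 8.61% at ZT14 and 5.22 to 7.21% at ZT6, ZT18 and ZT22. ZT10 shared its assigned plate column with ZT14, and the part of these differences in the ZT10 calls was not tested.

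**Figure D3:**
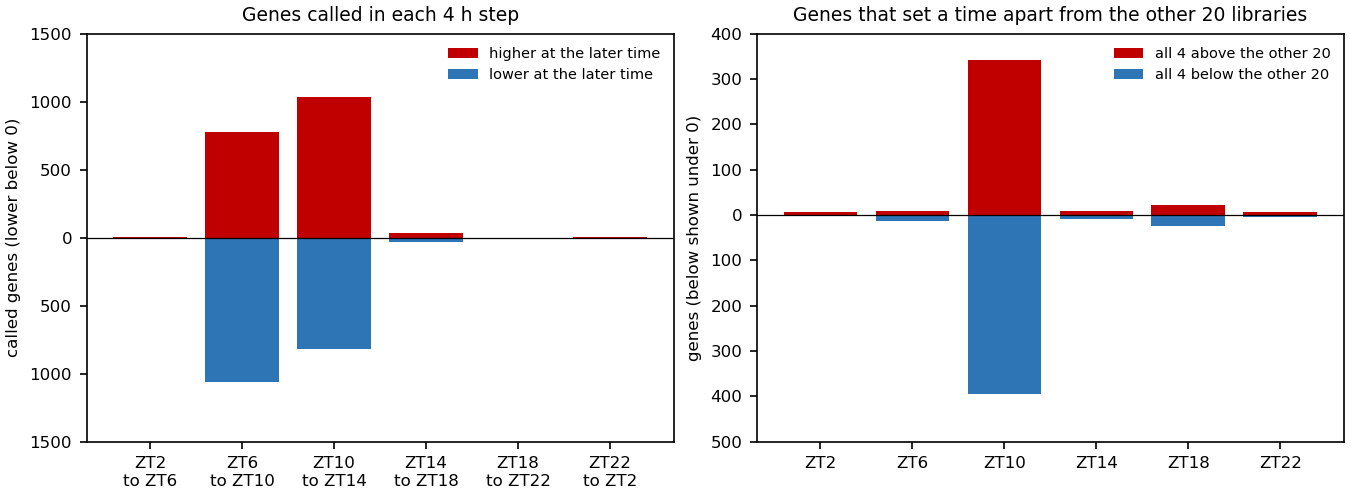
Left, genes called in each 4 h step, with those higher at the later time drawn above 0 and those lower drawn below 0 (vertical axis, number of genes). Right, genes in which all 4 libraries of a time lay above or below the other 20. The tall bars of both panels are those of ZT10, with 1838 and 1849 calls on the left and 342 and 395 genes on the right.

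A 12 h component, which marks profiles with 2 peaks a day or a peak sharper than a cosine, was called in 93 genes (0.598%), and 2528 genes had an unadjusted p under 0.05. The count moved by over 1.5 times in 22 of 24 fits that left out 1 library, from 0 without ZT10 replicate 3 or 4 to 322 without ZT2 replicate 3, and was 11 without the 2 libraries that stand apart. Tef and Srp19, a protein of the signal recognition particle, were among the genes of smallest p (adjusted p = 0.0278 each). Srp19 was at 25.6 ± 2.24 CPM at ZT10 and 61.2 ± 2.32 at ZT18. All ZT10 libraries but replicate 2 for Tef, and all 4 of them for Srp19, ended the call when left out singly, with adjusted p up to 0.0796.

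Functions were followed with 20 further gene lists, counted by the 24 h test and read against the 19.1% of all genes. List counts without ZT10 are read against the 958 of all 15548 genes that were called in that setting. Those with the largest shares were heat shock and cold-inducible RNA (14 of 17 genes, 82.4%), glucose and glycogen metabolism (20 of 26, 76.9%), amino acid and urea metabolism (17 of 28, 60.7%), the glucocorticoid response (10 of 17, 58.8%) and lipogenesis and triglyceride synthesis (10 of 19 tested, 52.6%). The smallest were ribosome biogenesis (5 of 31, 16.1%), lipoproteins and sterol efflux (5 of 21, 23.8%) and iron handling (4 of 16, 25%). When ZT10 was left out, calls fell to 4 of 34 xenobiotic, 4 of 21 heme, NAD and one-carbon and 3 of 25 unfolded protein response genes. They fell to 3 of 16 bile acid, 2 of 19 cell cycle, 2 of 15 growth hormone and IGF and 3 of 25 autophagy and proteasome genes. The glucocorticoid list held 6 of 17, the lipogenic 6 of 19, lipoproteins and sterol efflux 3 of 21 and ribosome biogenesis 0 of 31. Of that last list 4 had an unadjusted p under 0.05, against 3346 over all genes.

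**Figure D4:**
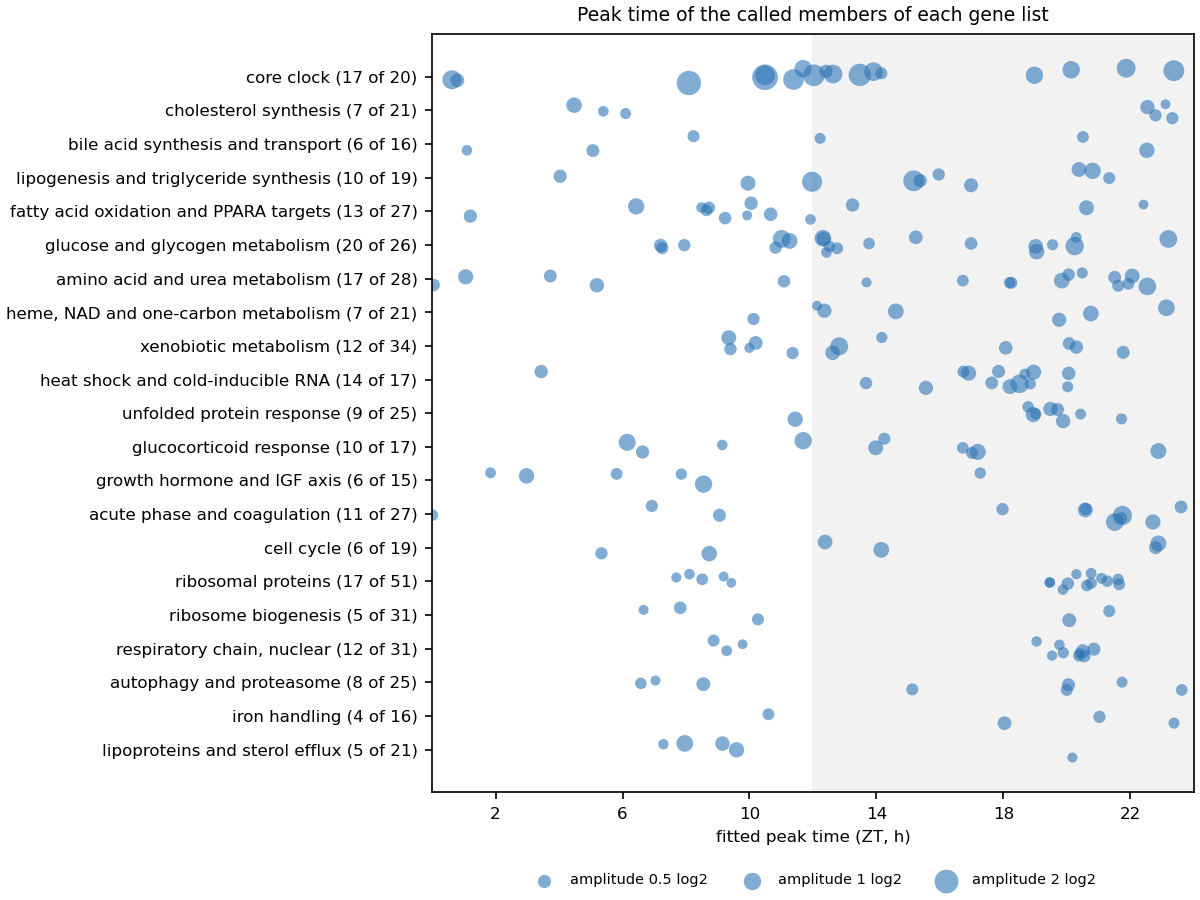
Fitted peak time (horizontal axis, ZT in h, dark phase shaded) of the called members of each gene list (1 line a list, with the number called of the number tested). The area of a dot grows with its amplitude and small vertical shifts only separate dots. Heat shock genes gather between 13.7 and 20.1 h apart from Cirbp at 3.4 h, and 8 of the 13 fatty acid oxidation genes lie in the bin around ZT10.

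The called glucose and glycogen genes peaked from 7.2 h to 23.2 h, with none in the bin around ZT2 and 7 in the bin around ZT14. Gckr, a regulator of hepatic glucose uptake (7.2 h), the carbohydrate response factor Mlxipl (7.25 h) and the insulin receptor Insr (7.95 h) were the first of the called genes, in the light. Pck1, which opens gluconeogenesis, followed at 11.3 ± 0.644 h with 3284 ± 380 CPM at ZT10 and 1199 ± 491 at ZT22 (amplitude 0.79 ± 0.13, adjusted p = 0.000174). Gys2, the liver's glycogen synthase, had CPM of 76.5, 89.9, 70.1 and 63.6 at ZT2, 109.9, 73.5, 114 and 115 at ZT6, 262, 227, 304 and 254 at ZT10, 223, 179, 277 and 246 at ZT14, 149.7, 169, 109 and 56.6 at ZT18 and 92.3, 122, 68.5 and 87.2 at ZT22. Its 8 libraries of ZT10 and ZT14 were all above the 8 of ZT2 and ZT6, and it peaked at 12.3 ± 0.509 h (amplitude 0.89 ± 0.12, adjusted p = 5.89e-06). Slc37a4 came at 15.2 ± 0.466 h (adjusted p = 8.72e-06), the bifunctional enzyme Pfkfb1 at 19 ± 0.663 h (adjusted p = 0.000139) and G6pc at 20.2 h. In the glycogen-targeting subunits of protein phosphatase 1, Ppp1r3g peaked at 11 h, Ppp1r3b at 19 h and Ppp1r3c at 23.2 h, with amplitudes of 1.04, 0.66 and 1.04. Without ZT10, 12 of the 26 genes were called.

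Of the fatty acid oxidation and PPARA target list, 13 of 27 were called (48.1%), 8 of them in the ZT10 bin. Cpt1a, the gate to mitochondrial oxidation, stood at 179 ± 21.5 CPM at ZT10 and 97.2 ± 7.46 at ZT18 (amplitude 0.44 ± 0.06, peak at 9.23 ± 0.546 h, adjusted p = 8.15e-05), and Ppara itself peaked at 10.7 h with an amplitude of 0.54 (adjusted p = 0.00101). Fgf21, a fasting hormone, had CPM of 5.41, 5.42, 1.52 and 3.16 at ZT2, 16.6, 2.2, 10.4 and 12.8 at ZT6, 3.42, 8.11, 1.76 and 1.49 at ZT10, 1.36, 2.36, 3.77 and 1.29 at ZT14, 0.375, 0.631, 2.2 and 1.68 at ZT18 and 2.35, 1.17, 0.351 and 0.897 at ZT22. The ZT6 libraries other than replicate 2 were above all others (peak at 6.43 ± 0.818 h, amplitude 0.86 ± 0.18, adjusted p = 0.000295). Plin2, which coats lipid droplets, peaked at 1.21 ± 0.662 h (adjusted p = 0.000817). Without ZT10, 5 of the 27 were called.

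In the lipogenic list, Lpin1 (12.0 h), Thrsp (15.2 h), Elovl6 (15.4 h), Dgat2 (17 h) and Acly (21.3 h) followed each other from evening into night. Agpat2 had CPM of 365, 355, 263 and 406 at ZT2, 252, 293, 209.6 and 227 at ZT6, 147, 173, 139.8 and 166 at ZT10, 221, 307, 316 and 331 at ZT14, 569.6, 501, 544 and 527 at ZT18 and 481, 472, 601 and 578 at ZT22. ZT10 was the low and ZT18 and ZT22 the high end, with no overlap between them (amplitude 0.86 ± 0.07, peak at 20.8 ± 0.311 h, adjusted p = 5.7e-08). The fatty acid synthase Fasn (adjusted p = 0.158), Srebf1 (adjusted p = 0.0951) and Scd1 (adjusted p = 0.0905) did not pass the test.

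Cholesterol synthesis gave 7 called genes of 21 (33.3%) in 2 groups of peak times. Hmgcs1, which makes HMG-CoA for the pathway, stood at 606 ± 279 CPM at ZT6 and 162 ± 22.7 at ZT14 (amplitude 0.76 ± 0.18, peak at 4.47 ± 0.897 h, adjusted p = 0.00476), and Sc5d (5.4 h) and Nsdhl (6.1 h) were near it. Phosphomevalonate kinase, Pmvk, was at 87.6 ± 17.2 CPM at ZT22 and 29.1 ± 8.13 at ZT10 (peak at 22.5 ± 0.79 h, adjusted p = 0.00436), Dhcr7, which catalyses the last step, at 113 ± 7.07 and 59.6 ± 12 (adjusted p = 0.0038), and Fdps and Ebp peaked at 22.8 and 23.1 h. Without ZT10, 3 of the 21 genes were called.

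Sterol efflux was rhythmic in its transporter pair. Abcg8, one subunit of the exporter of sterols into bile, had CPM of 36.7, 37.9, 42.7 and 41.1 at ZT2, 54.1, 87.2, 74.9 and 69.7 at ZT6, 62.5, 54.3, 80.8 and 68.5 at ZT10, 52.9, 44.8, 40 and 35.1 at ZT14, 21.8, 22.1, 13 and 24.6 at ZT18 and 37.3, 21.4, 22.6 and 14.7 at ZT22. All ZT6 and ZT10 libraries were above all ZT18 and ZT22 libraries. The amplitude was 0.90 ± 0.09 and the peak 7.96 ± 0.37 h (adjusted p = 3.08e-07). Its partner Abcg5 followed at 9.59 ± 0.441 h (amplitude 0.73 ± 0.08, adjusted p = 2.01e-06), and Npc1, which moves cholesterol out of lysosomes, at 9.15 ± 0.584 h (amplitude 0.64 ± 0.10, adjusted p = 3.92e-05).

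Among bile acid genes, 6 of 16 were called (37.5%). The bile salt export pump gene Abcb11 was at 337 ± 51 CPM at ZT2 and 166 ± 31.8 at ZT18 (peak at 5.07 ± 0.589 h, adjusted p = 0.000227), the phospholipid flippase gene Abcb4 peaked at 8.24 ± 0.714 h (adjusted p = 0.00117) and Cyp27a1, which starts the alternative pathway, at 20.5 ± 0.686 h (adjusted p = 0.00379). Cyp7a1, the rate-limiting enzyme of the classic pathway, did not pass (adjusted p = 0.412), and Cyp8b1, which sets the share of cholic acid, did (amplitude 0.75, 22.5 h, adjusted p = 0.0124).

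Amino acid genes peaked mainly at night, 4 in the ZT18 bin and 7 in the ZT22 bin of 17 called. Odc1, which opens polyamine synthesis, was at 68.7 ± 7.95 CPM at ZT18 and 18.7 ± 4.16 at ZT10 (amplitude 0.78 ± 0.10, adjusted p = 2.29e-05). Ddc, the aromatic amino acid decarboxylase, went from 16.8 ± 8.15 to 71.1 ± 11.6 CPM between ZT10 and ZT22 (amplitude 1.03 ± 0.14, adjusted p = 0.00017), and Gpt, alanine aminotransferase, from 131 ± 14.6 at ZT10 to 294 ± 19.1 at ZT18 (adjusted p = 0.000747). The urea cycle genes Cps1 (21.6 h), Ass1 (21.9 h) and Asl (18.3 h) were called at night with amplitudes of 0.39, 0.38 and 0.38, Arg1 peaked at 13.7 h, and Otc was not called (adjusted p = 0.374). Without ZT10, 8 of 28 were called.

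Of heme, NAD and one-carbon genes, 7 of 21 were called (33.3%). Nampt led them at 14.6 ± 0.37 h (amplitude 0.80 ± 0.08, adjusted p = 2.22e-07), and Afmid, an enzyme of the kynurenine pathway, peaked at 20.8 ± 0.64 h (adjusted p = 8.98e-05). Alas1, which limits heme synthesis, was just outside (adjusted p = 0.0512). Xenobiotic metabolism gave 12 of 34 (35.3%). Abcc2, which exports conjugates into bile, stood at 224 ± 13.2 CPM at ZT10 and 76.7 ± 21.4 at ZT18 (amplitude 0.69 ± 0.09, adjusted p = 2.29e-05), and Por, which feeds electrons to cytochromes P450, at 416 ± 58.6 and 205 ± 56.2 (peak at 12.6 ± 0.721 h, adjusted p = 0.000227). The receptor genes Nr1i2 (PXR, 9.4 h) and Nr1i3 (CAR, 11.4 h) peaked near them, and Gsta3, a glutathione transferase, at night (20.3 ± 0.539 h, adjusted p = 0.00018).

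Chaperone genes were higher in the dark. Of 14 called genes of the heat shock list, 9 peaked in the ZT18 bin. At ZT18, 10 of the 17 were higher than at ZT6 and 1 was lower, against 2.28% and 2.64% of all genes tested. The median log2 difference was 0.78 against -0.02 over all genes. Hspb1, a small heat shock protein gene, had CPM of 60.5, 81.3, 46.7 and 64 at ZT2, 29.6, 43.8, 23.4 and 28.5 at ZT6, 69.4, 76.6, 19.2 and 25.6 at ZT10, 69, 90.9, 196 and 186 at ZT14, 127, 152, 297 and 81 at ZT18 and 54.9, 127, 182 and 149.5 at ZT22. All ZT6 libraries were below every ZT14 and ZT22 library, and the libraries of ZT14 spread from 69 to 196 and those of ZT18 from 81 to 297. Its amplitude was 1.16 ± 0.19 and its peak 18.5 ± 0.627 h (adjusted p = 0.000103). Hsp90aa1, the inducible cytosolic HSP90, was at 207 ± 11.7 CPM at ZT18 and 75.9 ± 13.3 at ZT6 (adjusted p = 0.000337), and the mitochondrial cochaperonin Hspe1 at 378 ± 53.2 and 149 ± 15 at ZT18 and ZT10 (adjusted p = 0.000414). Cirbp, which is induced by cold, peaked on the opposite side of the day at 3.44 h (amplitude 0.52, adjusted p = 0.0086), while Rbm3, also cold-inducible, peaked at 16.7 h (adjusted p = 0.0383). Hspa1a and Hspa1b, near-identical copies, were not called (adjusted p = 0.314 and 0.214). Without ZT10, 9 of 17 were called, and without the 4 libraries with muscle markers 7. That last setting called 1468 of all 15548 genes tested. The remaining list genes with a call included Hspa8 (15.6 h), Hsph1 (16.9 h) and Hspd1 (20 h).

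The unfolded protein response gave 9 of 25 (36%), 6 of them in the ZT18 bin. Sdf2l1 and Dnajb11, partners of the endoplasmic reticulum chaperone BiP, peaked at 19.9 ± 0.713 h and 19.7 ± 0.765 h (adjusted p = 0.0009 and 0.00384), as did Hspa5, which encodes BiP, at 19.5 h (adjusted p = 0.0106). Herpud1, a gene of endoplasmic reticulum degradation, differed from them, with 704 ± 149 CPM at ZT14 and 213 ± 69.4 at ZT22 (peak at 11.4 ± 0.794 h, adjusted p = 0.00225). Glucocorticoid-responsive genes were spread over the day: Tsc22d3 peaked at 17.2 ± 0.357 h (amplitude 0.83 ± 0.08, adjusted p = 2.22e-07), Dusp1, a MAP kinase phosphatase, at 17 ± 0.625 h (adjusted p = 0.000761), Fkbp5 at 14 h and Klf9 at 6.63 h.

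In the growth hormone and IGF list, 6 of 15 were called (40%). Igfbp4, a binding protein of IGF1, was the firmest at 17.3 ± 0.668 h (amplitude 0.34 ± 0.06, adjusted p = 0.00275). Igfbp2 (adjusted p = 0.025) lost its call without ZT6 replicate 4, ZT18 replicate 1 or ZT18 replicate 2 (up to 0.0616), and Cux2, a factor of the female liver, (adjusted p = 0.028) without ZT10 replicate 3 or 4 (up to 0.109). Igf1 was not called (adjusted p = 0.617).

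Acute phase and coagulation genes were called in 11 of 27 (40.7%), 7 of them around ZT22, and the fibrinogen chains Fga, Fgb and Fgg were among these 11. Fga had CPM of 2512, 2593, 1788 and 2489 at ZT2, 2857, 2078, 3388 and 3138 at ZT6, 782, 772, 788 and 807 at ZT10, 1303, 1744, 2227 and 2502 at ZT14, 2512, 1704, 2744 and 3127 at ZT18 and 4145, 3149.7, 3016 and 2941 at ZT22. Its ZT10 libraries, from 772 to 807, lay below every other library. The adjusted p was 0.0106 and 0.308 without ZT10. F5, coagulation factor V, ran the other way, with 479 ± 73.2 CPM at ZT10 and 192 ± 25.8 at ZT18 (adjusted p = 0.000214). The list held 2 calls without ZT10, where 958 of all 15548 genes tested were called. In males alone it held 14 calls, where 6.86% of all genes were called, and in females alone 1, where 8.15% were. Counts over 2 separate fits are no test of a difference between the sexes.

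The cell cycle list gave 6 of 19 (31.6%). Wee1, a kinase that delays mitosis and a known clock target, peaked at 14.2 ± 0.444 h with 12.2 ± 3.27 CPM at ZT14 and 2.33 ± 0.4 at ZT2 (amplitude 0.78 ± 0.09, adjusted p = 1.6e-05), Cdkn1a, which encodes p21, at 22.9 ± 0.804 h (adjusted p = 0.00354) and Ccne1 at 12.4 ± 0.976 h (adjusted p = 0.00893). The replication genes Mcm2 to Mcm7 and Mki67 were not called.

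Ribosomal proteins gave 17 of 51 (33.3%) at low amplitudes of 0.20 to 0.44. Of them 9 peaked in the ZT22 bin, with Rplp0 at 751 ± 21.3 CPM at ZT18 and 383 ± 25.6 at ZT10 (adjusted p = 0.0101), while Rpl14 was highest at ZT10 (288 ± 31.8 CPM, against 128 ± 7.85 at ZT22, adjusted p = 0.0086). At ZT22, 19 of the 51 were higher than at ZT10 and 7 lower, against 9.91% and 9.71% of all genes tested. Without the ZT10 libraries none of the 51 was called in edgeR's 24 h test, where 4 had an unadjusted p under 0.05. Over all 15548 genes tested, 958 were called without ZT10 and 3346 had an unadjusted p under 0.05. Nuclear genes of the respiratory chain had 12 of 31 (38.7%), such as Atp5c1 with 692 ± 48.3 CPM at ZT18 and 399 ± 11.6 at ZT10 (adjusted p = 0.00918) and Ndufa9 with 70.9 ± 6.05 at ZT10 and 45 ± 2.67 at ZT22 (adjusted p = 0.00181), and 1 of 31 without ZT10. In ribosome biogenesis, Ncl, which encodes nucleolin, peaked at 10.3 ± 0.583 h (adjusted p = 0.000233), and Pwp1 and Rrs1 at 21.3 ± 0.708 h and 20.1 ± 1.08 h (adjusted p = 0.00313 and 0.00965).

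Autophagy and proteasome genes gave 8 of 25 (32%). Ulk1, the kinase that starts autophagy, was at 41.9 ± 4.66 CPM at ZT10 and 18.4 ± 2.82 at ZT18 (peak at 8.55 ± 0.655 h, adjusted p = 0.000218), Gabarapl1, a membrane tag of autophagosomes, peaked at 6.58 ± 0.856 h (adjusted p = 0.00239) and the mitophagy gene Bnip3 at 15.1 ± 0.815 h (adjusted p = 0.00401). Of the iron genes, the transferrin gene Trf was at 14848 ± 973 CPM at ZT22 and 7485 ± 610.4 at ZT10 (adjusted p = 0.00719), the zinc and iron importer Slc39a14 peaked at 10.6 ± 0.926 h (adjusted p = 0.00427), and Hamp, which encodes hepcidin, was called at an adjusted p of 0.0371 that rose to as much as 0.0727 without ZT6 replicate 2 or 3, ZT10 replicate 1 or 2, or ZT18 replicate 1, 3 or 4. Without ZT10, none of the 16 was called in edgeR's test, and 3 had an unadjusted p under 0.05, against 958 and 3346 of all 15548 genes tested.

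Between the sexes, the 24 h rhythm itself differed in 5 genes (0.0322%) by edgeR's test of sex against both rhythm terms, and 1079 genes had an unadjusted p under 0.05. The count was 3 without ZT6 replicate 3 or ZT10 replicate 2, and 9, 12, 14 and 23 without ZT6 replicate 1, ZT22 replicate 3, ZT2 replicate 1 and ZT18 replicate 2. With 12 libraries each, 1066 genes were called in males alone (6.86%) and 1267 in females alone (8.15%). Ethe1, a mitochondrial sulfur dioxygenase, had CPM of 88.5, 81.1, 118 and 95.1 at ZT2, 76, 124, 51.6 and 52.2 at ZT6, 64.4, 60.8, 35.8 and 28.6 at ZT10, 47.1, 47.4, 25.9 and 20.6 at ZT14, 44.6, 52.4, 66.4 and 61.1 at ZT18 and 68.4, 70.3, 116 and 110.3 at ZT22. At ZT6, ZT10 and ZT14 both males were above both females and at ZT18, ZT22 and ZT2 both were below, and the females ran from 20.6 to 118 CPM and the males from 44.6 to 124. The adjusted p of the difference was 0.000737, and 0.000388 without the 3 libraries that stand apart.

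Cyp2b10, a drug-inducible cytochrome P450 with close Cyp2b relatives, had CPM of 4.64, 3.79, 42.1 and 26.3 at ZT2, 81.9, 32.5, 16.9 and 30.1 at ZT6, 1.52, 0.649, 12 and 8.59 at ZT10, 1.16, 0.726, 28.3 and 30.6 at ZT14, 1.5, 0.947, 40.9 and 42.1 at ZT18 and 1.09, 0.389, 45.6 and 40.1 at ZT22. The females lay between 8.59 and 45.6 CPM at all times, whereas 10 of the 12 males had at most 4.64 and the 2 ZT6 males stood at 81.9 and 32.5. The adjusted p was 0.000737, and 0.375 without the 3 libraries, which hold both of those males. Npas2 (adjusted p = 0.0167) lost its call without ZT6 replicate 2, ZT6 replicate 3 or ZT18 replicate 4, with adjusted p up to 0.19, and at 0.35 without the 2 libraries that stand apart.

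H2-Q1, a class I histocompatibility gene with close relatives, was outside the rule for named genes and was chosen after its values were seen. It had CPM of 1.74, 7.04, 5.08 and 12.7 at ZT2, 18.7, 11.3, 9.84 and 7.69 at ZT6, 4.56, 3.89, 9.88 and 8.78 at ZT10, 0.582, 0.363, 9.42 and 8.54 at ZT14, 0.563, 0.631, 5.32 and 6.85 at ZT18 and 3.08, 3.12, 4.57 and 7.47 at ZT22 (adjusted p = 0.0492). Males had at most 0.631 at ZT14 and ZT18, and 18.7 and 11.3 at ZT6, and females stayed between 4.57 and 12.7. Both ZT6 males are among the 3 libraries that stand apart.

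**Figure D5:**
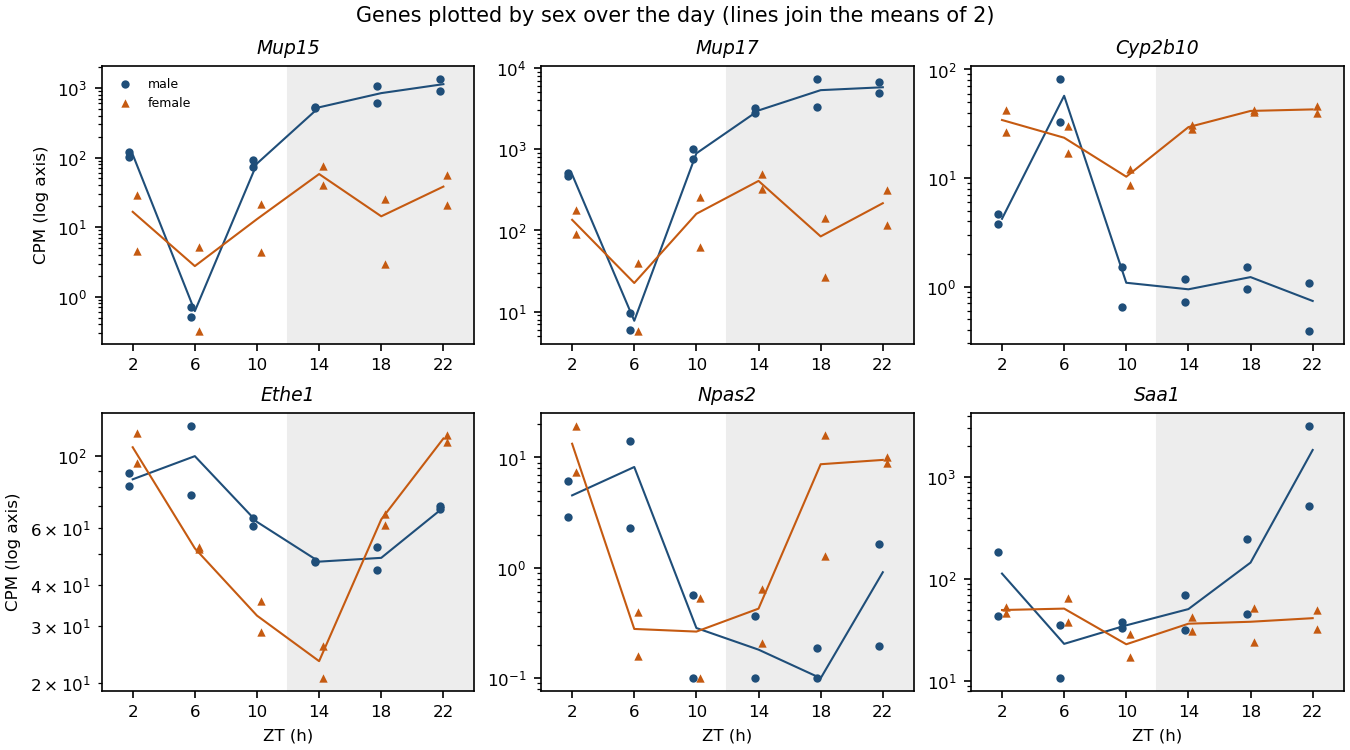
CPM (vertical log axis, values of 0 drawn at 0.1) against ZT in h (horizontal axis, dark phase shaded) for 6 genes, with circles for single males, triangles for single females and lines through the means of 2. Mup15 and Mup17 fall in both males at ZT6 and climb to ZT22, Cyp2b10 is low in males except at ZT6, and Saa1 is highest in the 2 ZT22 males; the difference in rhythm between the sexes was called for Cyp2b10, Ethe1 and Npas2 only among these 6.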

How the data were processed

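RNA of mouse liver was measured by BRB-seq, a 3′ barcoded RNA sequencing method (MERCURIUS kit, Illumina sequencing). The deposited table holds raw counts of 55487 genes in 96 libraries, which the authors made with STAR on mm10 and with HTSeq and featureCounts named in their processing notes, along with DESeq2. Collapsing of molecular identifiers and the strand setting are not given in the sources used here, so near-identical and overlapping genes are uncertain. The alignment summary lines (no feature, not aligned) stayed out of library sizes and tests, and 6.63 to 10.5% of reads (medians by time) had no feature.

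Genes with at least 100 counts summed over the 96 libraries were kept (15548). In the 24 libraries, TMM scaling and quasi-likelihood F tests were run in edgeR 4.0.16 (R 4.3.3) with Benjamini-Hochberg adjustment and a threshold of 0.05: a 24 h cosine and sine, time as a factor, contrasts 12 h and 4 h apart, an added 12 h pair and sex by rhythm. Amplitude and peak time came from a cosinor on variance-stabilized values (DESeq2 1.42.0, blind, 96 libraries) with delta-method standard errors, and the peak-to-trough fold is 2 to the power of the amplitude times 2. CPM used the TMM sizes. All tests were tried on simulated data.

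Named genes were the 20 core clock genes, the 5 of largest amplitude among called genes of each 4 h peak bin with a mean of at least 5 CPM (clock genes and predicted genes left out), the 3 of smallest p among the called genes of each list and in the 12 h and sex tests, and the 3 of smallest p in each direction of the 12 h contrasts with a log2 difference of at least 1. The 5 of highest mean CPM among called genes with an amplitude of at least 0.5 were named too. Further list and marker genes in the text were outside this rule. Mup20, Hsd3b5 and Cyp2b9 were chosen after their values were seen. The members and the lists were chosen with earlier results of these data known. Coordinates are those of RefSeq genes on GRCm38.p6 (mm10), matched by symbol. Promoter sequences were not used here, so the planned motif counts were not made. Results for some genes are not reported here. Nothing shows beyond mouse numbers that samples are independent, and p-values measure only the spread between these libraries.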

Additional observations from a re-analysis of the deposited data

Results flagged for a closer look

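Single libraries stood apart from the other 3 of their time in 30 of 246 groups of 4 tested, by a gap to the nearest library of more than 0.829 of the group's range. For independent groups of 4 values from a normal distribution, about 1 group in 20 would do so, or 12.3 here. The values were mostly untransformed CPM, each group held both sexes, and the same libraries recurred across the genes. The number 12.3 is therefore no chance expectation for these groups, and whether 30 is an excess was not tested. The groups were those of core clock genes, of the 2 leading genes of each peak bin, of genes of the sex test, of 4 library measures (total counts and shares of reads) and of 4 summed marker lists.

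ZT6 replicate 2 was the library concerned for Npas2 (14.1 CPM), Per2 (17.9 CPM), Cry1 (44.7 CPM), Usp2 (21.5 CPM) and Abcd2 (9.33 CPM, the low end). ZT18 replicate 4 was so for Npas2 (16.1 CPM) and Cry1 (44.7 CPM), the library being the female with Hsd3b5 at 76.8 CPM and Mup20 at 1922 CPM. Other clock genes had 1 distant library each in ZT14 replicate 1 for Clock (13.4 CPM) and Bhlhe41 (1.36 CPM), ZT10 replicate 4 for Cry1 (12.1 CPM), ZT6 replicate 1 for Cry2 (10.2 CPM), ZT22 replicate 2 for Nr1d1 (2.34 CPM) and ZT2 replicate 3 for Hlf (7.62 CPM).

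Outside the clock, Egr1 stood apart in ZT14 replicate 3 (3.35 CPM), ZT18 replicate 3 (1.83 CPM) and ZT22 replicate 3 (118.0 CPM). Saa1 did so in ZT2 replicate 2 (183.0 CPM), ZT18 replicate 1 (244.0 CPM) and ZT22 replicate 1 (3170.0 CPM), 3 males. ZT2 replicate 3, the library of lowest depth, was distant for Malat1 (168.0 CPM) and Rgs16 (6.09 CPM), and ZT6 replicate 3 for Mup15 (5.19 CPM) and Mup17 (39.4 CPM).

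Among the summed markers, hepatocyte genes were distant in ZT18 replicate 3 (166000.0 CPM), erythrocyte genes in ZT14 replicate 2 (2250.0 CPM) and ZT22 replicate 1 (2810.0 CPM), and genes of the exocrine pancreas in ZT22 replicate 4 (85.8 CPM). Skeletal muscle genes were distant in ZT10 replicate 3 (39.1 CPM), ZT14 replicate 3 (8.37 CPM) and ZT22 replicate 4 (793.0 CPM).

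The rhythm differed between males and females, by edgeR's interaction test with Benjamini-Hochberg adjustment, for 5 genes, among them Cyp2b10 (adjusted p = 0.000737), Ethe1 (0.000737), Npas2 (0.0167) and H2-Q1 (0.0492). Mup7 was not called (0.0571). Of the 5 genes, 3 were also called without the 2 libraries that stand apart on the clock genes, and 2 without all 3.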

How the results depend on the processing

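The 24 h count stayed within 1.5 times of 2969 with DESeq2, DESeq2 size factors, either filter, sex as a covariate, a cosinor F test, thinning to the lowest library total, and without the 2 or 3 libraries that stand apart. It was 1066 in males, 1267 in females, 1353 at an adjusted p under 0.01, 958 without the ZT10 libraries and 1468 without the 4 libraries with muscle markers, the last 2 settings and the one without 3 libraries having been chosen after seeing the data. With the assigned plate column as a covariate it was 748, but the columns are pairs of neighbouring times and take up part of the rhythm itself. The median amplitude of called genes was 0.443 on log2 CPM and 0.306 without ZT10. DESeq2 and sex as a covariate gave 319 and 299 genes for ZT14 against ZT2, and 1160 and 1333 for ZT18 against ZT6, which held 464 without the 2 libraries and 315 without 3. The balance of higher and lower calls turned over in some contrasts. For ZT18 against ZT6 it was 355 higher and 410 lower as reported, 396 and 352 with DESeq2 size factors, 612 and 548 with DESeq2 and 394 and 374 with no filter. For ZT2 to ZT6 it was 9 and 3 as reported and 43 and 58 with DESeq2, for ZT14 to ZT18 34 and 30 against 116 and 124, and for ZT22 to ZT2 2 and 1 against 16 and 29 (5 and 7 with no filter, 6 and 7 with sex as a covariate).

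For the 4 h steps, DESeq2, no filter, sex as a covariate, leaving out 2 libraries and leaving out 3 gave, in this order, 101, 38, 91, 43 and 31 for ZT2 to ZT6, 240, 150, 233, 21 and 10 for ZT14 to ZT18, 4, 5, 3, 2 and 0 for ZT18 to ZT22 (0 also with at least 10 counts in 4 libraries), and 45, 12, 13, 5 and 5 for ZT22 to ZT2. ZT6 to ZT10 held 1216 without 3 libraries. The 12 h test called 804 genes with DESeq2, 196 and 234 with the stricter and no filter, 494 with sex as a covariate, 11 without 2 libraries and 6 without 3. The sex test called 37 with DESeq2, 345 with no filter and 13 without 2 or 3 libraries. Of the 5 genes called with all libraries, 3 were among the 13 without 2 libraries and 2 among the 13 without 3.

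Leaving out 1 library at a time gave 2284 (without ZT10 replicate 3) to 3061 rhythmic genes, 2498 to 3412 genes with any time difference, 101 (without ZT14 replicate 3) to 222 for ZT14 against ZT2, 438 (without ZT18 replicate 1) to 872 for ZT18 against ZT6, 2419 to 3178 for ZT22 against ZT10, and 1920 to 2900 over the 4 h steps. The single steps ran from 3 (without ZT2 replicate 1) to 40 (without ZT6 replicate 2), 1356 to 1972, 1167 (without ZT14 replicate 4) to 2058, 0 (without ZT14 replicate 1) to 106 (without ZT22 replicate 4), 0 to 13 (without ZT22 replicate 4) and 1 to 5, the 12 h test from 0 (without ZT10 replicate 3) to 322 (without ZT2 replicate 3), the sex test from 3 to 23 (without ZT18 replicate 2), and the median amplitude from 0.367 to 0.396. Of the values of single named genes, 217 lost and 13 gained the threshold in some alternative. The cause was not tested in any of these cases, and small libraries such as ZT2 replicate 3 limit genes of low count. No paired analysis was possible because the labels give no replicate numbers.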

Other observations

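Lists of markers of other liver cells are short. Their calls are read against the 19.1% called over all genes tested and the 10.6% called among genes with a mean under 10 CPM. Of Kupffer cell and macrophage genes, 1 of 10 was called (C1qb, a complement subunit, with a peak at 19.7 h and an amplitude of 0.37, adjusted p = 0.036 in edgeR), of sinusoidal endothelial genes 1 of 8 (Clec4g, a lectin, at 19.9 h and 0.61, adjusted p = 0.000727) and of stellate cell genes 1 of 8 (Des, desmin, at 19.7 h and 0.70, adjusted p = 0.00513). Krt19, a keratin of bile ducts, was the 1 called gene of 6 cholangiocyte markers (17.7 h, adjusted p = 0.013). Summed levels ranged over the 24 libraries from 180.2 to 452 CPM for the macrophage list, from 137 to 305 CPM for the endothelial list and from 156 to 363 CPM for the stellate list, and for each of them the median at ZT10 (278, 174 and 203 CPM) was the lowest of the 6 times. The highest stellate sums were 363 CPM in ZT22 replicate 4 and 359 CPM in ZT18 replicate 4, both among the libraries with muscle markers. Whether muscle RNA took part in the call of Des was not tested.

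Haemoglobin genes were called in 4 of 5 erythrocyte markers, against 19.1% of all genes tested, and peaked late at night. Hbb-bs, the adult beta globin, led them at 20.5 h with an amplitude of 0.64 (adjusted p = 0.00767), and Hba-a1 peaked at 19.5 h (adjusted p = 0.0176). The summed level was 660 CPM at ZT10 and 1600 CPM at ZT18 (medians of 4 livers). Alpha and beta globin genes have near-identical copies.

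Genes of the exocrine pancreas were called in 5 of 7, with peaks from 21.7 to 23.5 h, against 19.1% called over all genes tested. Cela1, an elastase, accounted for most of their level with a mean of 27.7 CPM (22.1 h, adjusted p = 0.0012), and the other 4 called genes, Cpa1, Pnlip, Prss2 and Try4, each had a mean of at most 1.34 CPM. The highest sum was 178 CPM at ZT2, against medians of 16.8 CPM at ZT10 and 46.8 CPM at ZT18. Whether RNA of these cells took part in other calls was not tested.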
